A study of Danio rerio with 14 samples.

Results

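Described here are 9 zebrafish genes for enzymes, enzyme inhibitors, a pump subunit, a lysosomal membrane protein, an RNA-binding protein and a chromatin reader, namely atp1b3a, hsd3b2, csad, ube2e2, ppp1r14c, fam212ab, dram1, zfp36l1b and cbx7a. These 9 of the 13830 genes in the count table were chosen from genes that the study listed as raised by BMP signaling, leaving out signaling proteins and DNA-binding factors. They were thus selected on 3 comparisons of these libraries, wild-type against bmp7 mutant embryos at 6 hpf (hours post fertilization), the same at 8 hpf, and BMP2/7 protein against none in CHX-treated mutants. Values from these 3 comparisons are given for the 9 genes as a description, without a p-value, and counts of calls among the 9 stand beside the share of all genes with nothing read from them. Changes with stage and with CHX treatment are tested, but not on other libraries. The CHX-alone and untreated mutant libraries are both low sides of the comparisons that chose the genes. This can shift the 9 in either direction in the tests of stage and CHX, so those tests are not independent of the choice.

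BMP ligands form a gradient along the dorsal-ventral axis of the zebrafish gastrula. They signal through receptor kinases that phosphorylate Smad5, which then enters the nucleus and acts on target genes, and high signaling specifies ventral fates. Cycloheximide (CHX) blocks translation, so that a transcript raised by BMP protein in its presence is raised without new protein being made. Many known targets are transcription factors or regulators of the pathway itself. The products of the 9 genes here act in ion transport, metabolism, protein modification, lysosomes, mRNA decay and Polycomb silencing.

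RNA of whole embryos was sequenced from 14 libraries in 6 groups. Untreated wild-type and bmp7-/- embryos were collected at early gastrula (6 hpf) and mid-gastrula (8 hpf), with 2 libraries of 40 embryos per genotype and stage. A further 6 libraries of 50 bmp7-/- embryos each were given 10 µg/ml CHX for 30 minutes at 4 hpf, the stage on their labels, and the embryos of 3 of them were injected with 10 pg of BMP2/7 heterodimer (3 nl at 120 nM). These were collected 90 minutes after the injection. No group injected with the solution alone was analysed here, so effects of the protein and of the injection cannot be told apart. The mutants came from homozygous parents that had been rescued as embryos with bmp7a mRNA, and the column headings of the count table call the controls heterozygous (Aub-/+) where the labels give wild-type, so the genotype and differences between the parents cannot be told apart either. Whether the replicates came from separate crosses is not stated, so p-values measure the spread between these libraries, which may be technical. In RNA of whole embryos, fewer cells of a type and less RNA per cell cannot be told apart.

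The mutated gene was measured first. bmp7a (RefSeq NM_131321), which encodes a BMP ligand, stood at 63.9 and 60.3 CPM (counts scaled to a common library size with TMM factors over the 14 libraries) in wild-type embryos at 6 hpf and at 3.34 and 1.88 CPM in bmp7 mutants. At 8 hpf the levels were 40.2 and 43.4 CPM against 0.871 and 0.470 CPM. The log2 fold change of wild-type over mutant was 4.59 (SE 0.34, adjusted p = 0.000328 in edgeR) at 6 hpf and 6.15 (SE 0.41, adjusted p = 0.000209) at 8 hpf. In the CHX groups bmp7a was at 18.9 ± 4.22 CPM (SD, n = 3) without and 26.0 ± 3.45 CPM (SD, n = 3) with BMP2/7 protein. CHX alone was above untreated 6 hpf mutants (log2 fold change 2.84, SE 0.30, adjusted p = 5.64e-06). Total counts per library were between 5034277 (mutant, 8 hpf, replicate 1) and 23153881 (wild-type, 6 hpf, replicate 2). Sums over marker genes of other tissues differed between the CHX and the untreated libraries. The 4 enveloping layer markers (krt4, krt5, krt8, cldne) summed to 5028 to 7631 CPM in the untreated groups and to 259.9 to 1050.0 CPM under CHX, where krt5, under 1 CPM in every group, was at 0 in every library. The 4 markers of yolk and yolk syncytial layer (hnf4a, apoa1b, apobb.1, slc26a1) summed to 166 to 1297 CPM untreated and to 1.25 to 37.6 CPM under CHX, with hnf4a at 0 in all CHX and in both 6 hpf mutant libraries.

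All 9 genes passed the filter on low counts. In the fit of the 6 CHX libraries ppp1r14c and cbx7a passed it only through the libraries with BMP2/7 protein, where they are high. With CHX alone they had 1, 0 and 1 counts (ppp1r14c) and 5, 11 and 7 counts (cbx7a). In wild-type over mutant embryos at 6 hpf 9 of the 9 log2 fold changes were above 0, with a median of 1.06 and a range of 0.18 to 2.99, where the median of all 10029 genes tested was 0.04. edgeR called 2 of them higher (9.09% of all genes were called higher and 6.34% lower). At 8 hpf the median was 1.04 and 1 gene was called higher (2.02% of all genes higher, 1.13% lower). With BMP2/7 protein under CHX all 9 were called higher (1.91% of all genes higher, 0.349% lower), with log2 fold changes of 0.96 to 5.04 and a median of 1.86. Without CHX replicate 1 the comparison called 4 of the 9 and 81 of all genes higher. Without injected replicate 1 it called 5 of the 9 and 92 of all genes higher. Since these comparisons chose the genes, nothing is read from these counts.

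Markers of embryonic regions moved with the same groups. With the protein the 4 ventral ectoderm markers (foxi1, tp63, gata2a, tfap2a) summed to 979 to 1230 CPM against 339 to 406 CPM with CHX alone. The 4 mesoderm markers (ta, tbx16, tbx6, mespaa) summed to 2450 to 3425 against 1286 to 1708 CPM. Singly, tfap2a and tbx16 overlapped, and tbx6 and mespaa were under 1 CPM in every CHX library. The sum of the 3 organizer markers measured (chrd, noto, foxa2) was lower with the protein, at 751 to 779.7 against 973 to 1176 CPM. Of these, chrd was lower, at 300 to 374 against 433 to 712 CPM, while noto and foxa2 overlapped. Between genotypes at 8 hpf the ventral sum was 779 to 791 CPM in wild-type and 227 to 259.5 CPM in mutants. The organizer sum was 744 to 931 against 1529 to 1679 CPM. In it chrd was at 568 to 701 CPM in wild-type and 1306 to 1465 CPM in mutants, and noto overlapped. At 6 hpf the ventral sums were 364 to 532 CPM in wild-type and 357 to 363 CPM in mutants, and the organizer sums overlapped. In that ventral sum foxi1 (means of 52.7 and 8.32 CPM) and gata2a (137 and 62.6 CPM) were higher in wild-type, with ranges apart. The largest part of it, tfap2a, was lower in wild-type (257 and 288 CPM), also with ranges apart, and tp63 overlapped. The part of these markers in the values of the 9 genes was not tested.

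With stage and CHX treatment the genes diverged. From 6 to 8 hpf in wild-type embryos 1 of the 9 rose and 1 fell (1.07% of all genes rose, 0.688% fell), and in bmp7 mutants 2 rose and 2 fell (5.31% rose, 5.57% fell). In CHX-treated against untreated mutants 1 was higher and 6 were lower (29.7% of all 10776 genes higher, 28.3% lower), with a median log2 fold change of -1.08 where that of all genes was 0.08. The CHX-alone libraries are shared with the comparison that chose the genes, so this count is not independent of the choice.

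**Figure D1:**
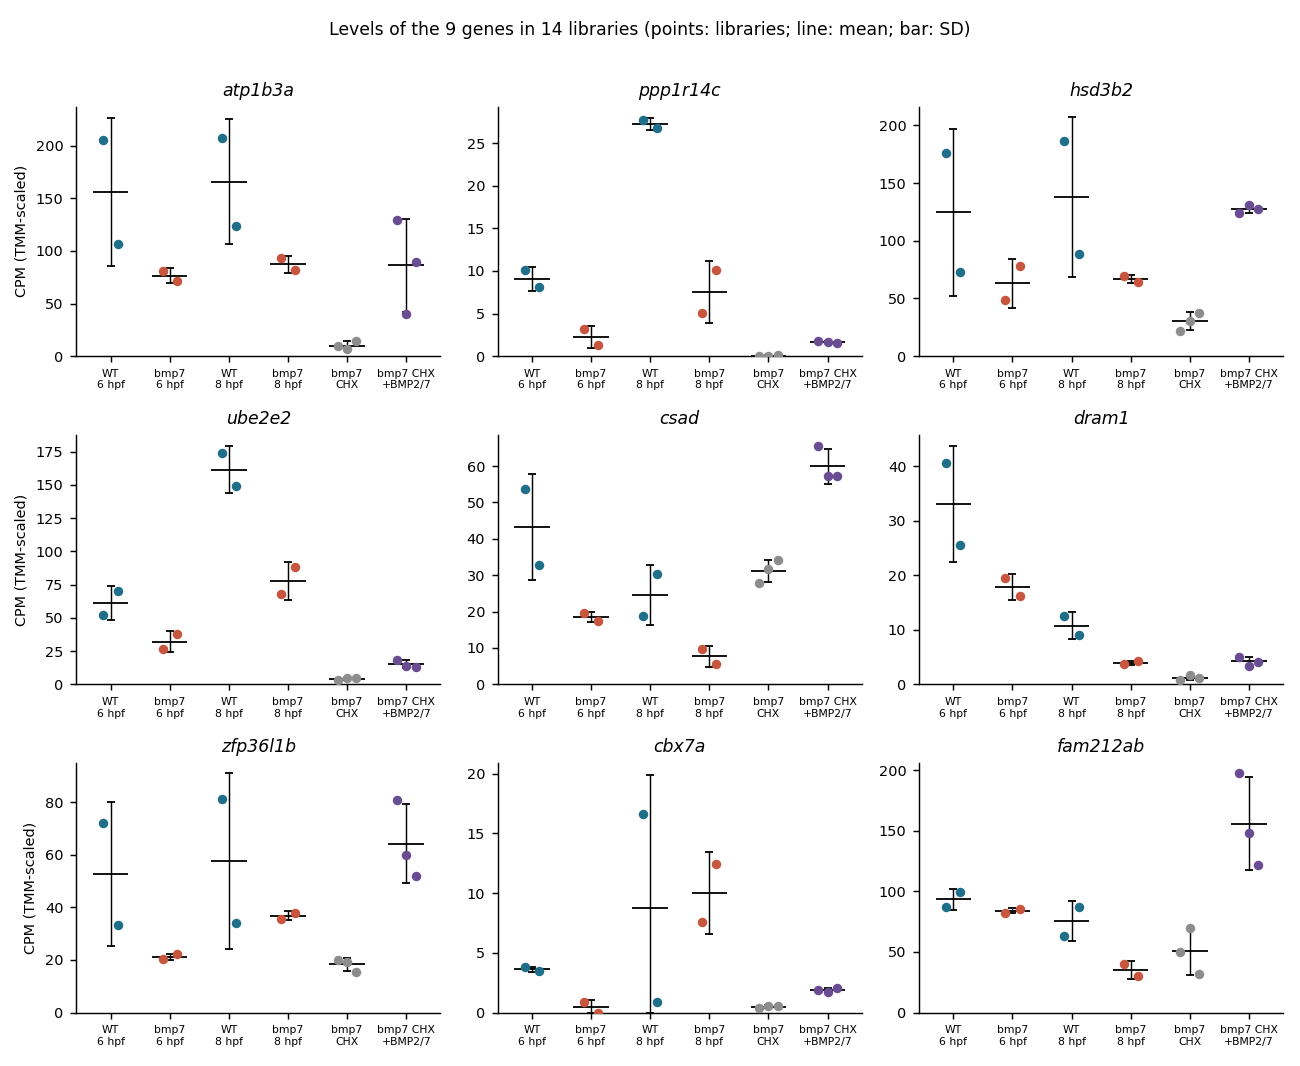
Level of each of the 9 genes in every library, in CPM scaled by TMM factors, on linear axes that start at 0. Points are libraries, the horizontal line is the group mean and the bar is the SD over 2 (untreated) or 3 (CHX) libraries, ended at 0 where it would pass below. All 3 libraries with BMP2/7 protein lie above all 3 with CHX alone in each panel, a comparison on which the genes were selected. The untreated groups differ in order from gene to gene.

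**Figure D2:**
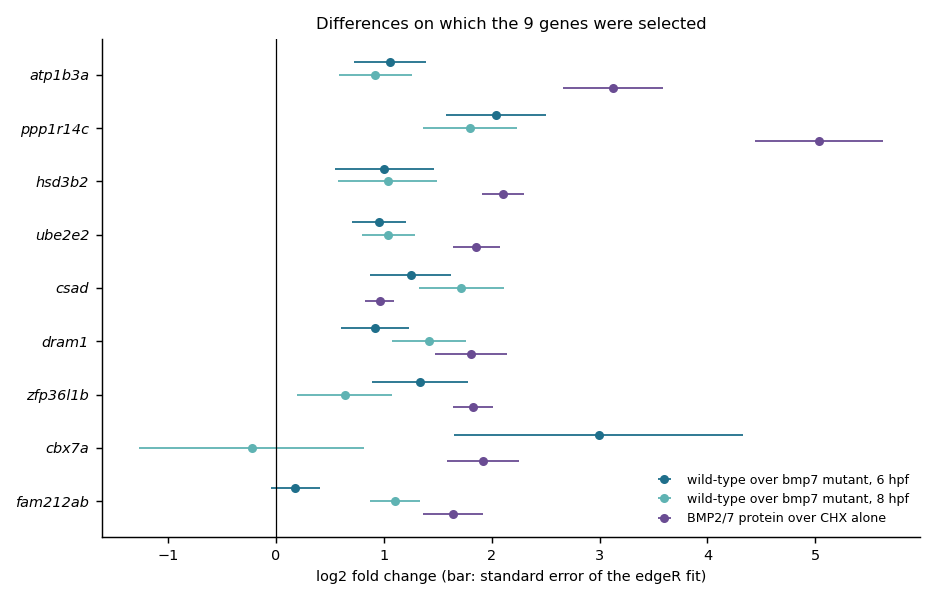
Log2 fold changes of the 9 genes in the 3 comparisons on which they were selected, with the standard error of the edgeR fit. The BMP2/7 values run from 0.96 (csad) to 5.04 (ppp1r14c), and the only value below 0 is that of cbx7a at 8 hpf (-0.22).

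atp1b3a (NM_131221) encodes a beta subunit of the sodium-potassium pump, the ATPase that sets the sodium and potassium gradients of animal cells. Its levels in wild-type embryos were 206 and 106 CPM at 6 hpf and 208 and 124.1 CPM at 8 hpf, and in bmp7 mutants 81.4 and 71.4 CPM at 6 hpf and 93.2 and 81.4 CPM at 8 hpf. Under CHX it was at 9.26, 6.31 and 14.6 CPM without and 129, 40.4 and 89.2 CPM with BMP2/7 protein. Wild-type was above mutant at both stages and CHX alone was below every other library, while injected embryos covered the range of untreated mutants. Mutant levels were 49.0% of wild-type at 6 hpf and 52.6% at 8 hpf, and CHX alone gave 11.7% of the level with the protein, a log2 fold change of 3.12 (SE 0.46) for the protein. The level did not change detectably with stage (log2 fold change 0.10, SE 0.33, adjusted p = 0.906 in wild-type and 0.24, SE 0.33, adjusted p = 0.688 in mutants), and leaving out a wild-type library turned the first value to -0.32 (6 hpf replicate 2 or 8 hpf replicate 1). CHX-treated mutants had less of it than untreated ones (log2 fold change -2.94, SE 0.45, adjusted p = 0.000115).

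The closest relative of atp1b3a, the beta subunit gene atp1b3b, was not called with BMP2/7 protein. It was at 128 ± 23.9 CPM (SD, n = 3) with CHX alone and at 121.3 ± 25.2 CPM (SD, n = 3) with BMP2/7 protein (log2 fold change -0.06, SE 0.20, adjusted p = 0.973), and unlike atp1b3a it was higher in CHX-treated than in untreated mutants (log2 fold change 1.41, SE 0.24, adjusted p = 0.000284). It fell from 6 to 8 hpf in wild-type (-1.52, SE 0.26, adjusted p = 0.0276) and mutants (-1.32, SE 0.26, adjusted p = 0.0166). The wild-type call was lost without either wild-type 6 hpf library, wild-type 8 hpf replicate 1 or either mutant 8 hpf library. It was also lost with only both wild-type groups in the fit. The mutant call was lost without mutant 6 hpf replicate 1 or either mutant 8 hpf library. Over 14 alternatives the values ran from -1.85 to -1.25 in wild-type and from -1.38 to -1.25 in mutants. atp1b2a, another beta subunit gene, was like atp1b3a higher in wild-type at 6 hpf, at 41.6 ± 4.90 against 7.47 ± 2.32 CPM (SD, n = 2 each; log2 fold change 2.50, SE 0.28, adjusted p = 0.0021), a call that held in every alternative, and at 8 hpf (1.38, SE 0.26, adjusted p = 0.0292), a call lost without any one of the 4 libraries of that stage (adjusted p = 0.0843 to 0.223). Under CHX it stood at 5.70 ± 1.75 CPM without and 4.30 ± 0.722 CPM with the protein (SD, n = 3 each). Of 20 listed genes for alpha, beta and FXYD subunits, 8 were tested at 6 hpf with 1 gene up (atp1b2a) and 2 down in wild-type (fxyd6l and atp1a1a.4), while 0 of the 6 tested with BMP2/7 protein were called.

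hsd3b2 (NM_212797) encodes a steroid dehydrogenase and isomerase of the pathway that makes progesterone and other steroid hormones. It was measured at 176 and 73.3 CPM in wild-type embryos at 6 hpf, 187 and 88.9 CPM at 8 hpf, 48.3 and 78.2 CPM in mutants at 6 hpf and 69.2 and 64.6 CPM at 8 hpf. CHX alone gave 22.0, 30.5 and 37.7 CPM, and CHX with BMP2/7 protein 124.03, 131 and 128 CPM. The injected libraries were thus nearly equal and within the wild-type range, whereas the wild-type libraries of each stage differed so much that those of 6 hpf overlapped the mutants. The log2 fold changes were 1.01 (SE 0.46) and 1.04 (SE 0.46) for wild-type over mutant at 6 and 8 hpf, running from 0.22 to 1.52 and from 0.41 to 1.48 with 1 library left out, and 2.10 (SE 0.20) for the protein. No change from 6 to 8 hpf was detected in wild-type (0.15, SE 0.45, adjusted p = 0.890) or mutants (0.12, SE 0.46, adjusted p = 0.891). The level was lower in CHX-treated than in untreated mutants (-1.08, SE 0.37, adjusted p = 0.0219), a call lost without the untreated replicate 2 (adjusted p = 0.230) or CHX replicate 1 (adjusted p = 0.0783). Among 27 listed genes of steroid synthesis 13 were tested in untreated embryos. In wild-type over mutants at 6 hpf 0 were above and 3 were below, cyp17a1, which encodes the steroid hydroxylase and lyase (-2.07, SE 0.36, adjusted p = 0.0103, lost at adjusted p = 0.0512 without mutant replicate 2), and the hydroxysteroid dehydrogenase genes hsd17b10 (-1.14, SE 0.23, adjusted p = 0.0160, and 0.0909 without mutant replicate 2) and hsd17b12a (-0.86, SE 0.20, adjusted p = 0.0258, and 0.0716 to 0.0873 without any one library of that stage). The same 3 were lower at 8 than at 6 hpf in mutants, calls lost without either mutant 8 hpf library for hsd17b10 and without any one mutant library for the others (adjusted p = 0.0537 to 0.253).

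csad (NM_001007348) encodes the decarboxylase that makes hypotaurine, the precursor of taurine. In wild-type embryos it stood at 53.6 and 32.9 CPM at 6 hpf and at 18.8 and 30.4 CPM at 8 hpf, in mutants at 19.6 and 17.5 CPM and then at 9.80 and 5.58 CPM. CHX alone gave 27.9, 31.6 and 34.1 CPM and CHX with BMP2/7 protein 65.6, 57.2 and 57.2 CPM. The injected embryos were above every other group, and CHX alone was already above untreated mutants of both stages, an order seen in none of the other 8 genes. Wild-type over mutant log2 fold changes were 1.25 (SE 0.37) at 6 hpf and 1.72 (SE 0.40) at 8 hpf, and the protein gave 0.96 (SE 0.13), the smallest of the 9. CHX-treated mutants had 1.67-fold the level of untreated ones (log2 fold change 0.74, SE 0.28, adjusted p = 0.0372), with the call lost without either untreated library, without CHX replicate 2 or 3 (adjusted p = 0.0625 to 0.167) or with the replicate number as a block (adjusted p = 0.0551). The decline from 6 to 8 hpf, -0.81 (SE 0.37, adjusted p = 0.304) in wild-type and -1.27 (SE 0.40, adjusted p = 0.0713) in mutants, did not pass the test, though the mutant value did with the block, by DESeq2, without the filter or with only both mutant groups in the fit (adjusted p = 0.0137 to 0.0478). cdo1, whose enzyme makes the substrate of Csad, was at 2.30 ± 0.116 CPM in wild-type and 0.557 ± 0.277 CPM in mutants at 6 hpf (SD, n = 2 each; adjusted p = 0.136) and had too few counts to be tested under CHX. Of 19 tested genes of cysteine and taurine metabolism 4 were below and 0 above the mutants at 6 hpf in wild-type, among them cbsb, for an enzyme that makes cystathionine (-0.99, SE 0.23, adjusted p = 0.0245, and 0.0640 to 0.100 without wild-type replicate 2 or either mutant library).

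ube2e2 (NM_001003494) encodes an E2 enzyme, which carries activated ubiquitin to its targets. Its levels were 52.2 and 70.2 CPM in wild-type and 26.4 and 37.6 CPM in mutant embryos at 6 hpf, and 174 and 149 CPM against 67.9 and 88.0 CPM at 8 hpf. With CHX alone it was at 3.42, 4.56 and 4.83 CPM, and with CHX and BMP2/7 protein at 18.7, 14.1 and 13.2 CPM. Wild-type lay above mutant at each stage, 8 hpf above 6 hpf in each genotype, and the injected CHX embryos above CHX alone yet below every untreated library. The mutants held 52.3% and 48.3% of the wild-type level at 6 and 8 hpf, and the protein gave a log2 fold change of 1.86 (SE 0.22). The rise with stage was 2.66-fold in wild-type (log2 fold change 1.41, SE 0.25, adjusted p = 0.0319) and 2.51-fold in mutants (1.33, SE 0.25, adjusted p = 0.0133). The wild-type call was lost without wild-type 6 hpf replicate 1, either wild-type 8 hpf library or either mutant 8 hpf library. It was also lost with only both wild-type groups in the fit. The mutant call was lost without mutant 6 hpf replicate 1 or 8 hpf replicate 2. Over 14 alternatives the values ran from 1.23 to 1.62 in wild-type and from 1.08 to 1.62 in mutants. CHX-treated mutants stood 7.52-fold below untreated ones (-2.91, SE 0.24, adjusted p = 9.57e-07).

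No change was detected in ube2e3 or ube2e1, close relatives of ube2e2, with BMP2/7 protein. ube2e3 had group means of 121.5 to 130 CPM in all 6 groups, with a log2 fold change of 0.03 (SE 0.12, adjusted p = 0.978) for BMP2/7 protein and of 0.03 (SE 0.15, adjusted p = 0.869) for CHX over untreated mutants. ube2e1 was at 315 ± 15.7 CPM with CHX alone and 283 ± 3.38 CPM with the protein (SD, n = 3 each; -0.14, SE 0.09, adjusted p = 0.767). Among 33 tested E2 genes the wild-type had 0 up and 3 down at 6 hpf, led by ube2l3a, at 27.7 ± 8.10 against 98.04 ± 5.69 CPM (SD, n = 2 each; log2 fold change -1.80, SE 0.24, adjusted p = 0.00436).

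ppp1r14c (NM_001029963) encodes an inhibitor of protein phosphatase 1 that, in mammals, is made potent by phosphorylation through protein kinase C. Under CHX alone it had 1, 0 and 1 counts in the 3 libraries (0.0712, 0 and 0.0792 CPM), against 41, 24 and 19 counts with BMP2/7 protein. The ratio of its levels was 38.8 (95% exact counting interval 10.4 to 326, which covers counting error only). Untreated wild-type embryos had 10.1 and 8.09 CPM at 6 hpf and 27.7 and 26.7 CPM at 8 hpf, and mutants 3.16 and 1.32 CPM and then 5.01 and 10.2 CPM. The wild-type 8 hpf libraries were above all others, and the injected CHX libraries, at 1.58 to 1.76 CPM, were inside the range of the 6 hpf mutants. Mutant levels were 24.6% of wild-type at 6 hpf and 27.9% at 8 hpf. From 6 to 8 hpf the level rose 3.59-fold in mutants (log2 fold change 1.84, SE 0.47, adjusted p = 0.0379), a call lost without any one of the 4 mutant libraries or without wild-type 8 hpf replicate 2 (adjusted p = 0.0507 to 0.334) or with only both mutant groups in the fit (0.0539). In wild-type the same change was 1.60 (SE 0.43) and did not pass (adjusted p = 0.0997), though it did by DESeq2 (0.00786) and without the filter (0.0482). Untreated 6 hpf mutants had 51.4 times the level of CHX-treated ones (95% exact counting interval 13.5 to 436; adjusted p = 1.89e-05 in edgeR). Among the related genes, ppp1r14bb was at 41.8 ± 15.0 CPM with CHX alone and 31.3 ± 7.94 CPM with the protein (SD, n = 3 each; adjusted p = 0.776), and ppp1r14ab was lower in wild-type than in mutants at 6 hpf (-2.36, SE 0.58, adjusted p = 0.0307, and 0.0655 to 0.136 without wild-type replicate 1 or either mutant library of that stage). Of 13 tested genes for phosphatase 1, myosin phosphatase and their regulators 0 were higher and 2 lower at 6 hpf.

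fam212ab (NM_199788; now named inka1b) encodes a protein of the Inka family, whose human member INKA1 inhibits the kinase PAK4. Its levels were 87.4 and 99.5 CPM in wild-type and 82.5 and 85.4 CPM in mutant embryos at 6 hpf, and 63.5 and 86.8 CPM against 40.1 and 30.0 CPM at 8 hpf. CHX alone gave 50.1, 69.8 and 31.4 CPM and CHX with BMP2/7 protein 197, 148 and 121.7 CPM. The genotypes nearly touched at 6 hpf and were apart at 8 hpf, and the injected embryos were above all untreated libraries. The log2 fold change of wild-type over mutant was 0.18 (SE 0.23) at 6 hpf and 1.11 (SE 0.23) at 8 hpf, and that of the protein was 1.64 (SE 0.28). In mutants the level fell by 1.23 on the log2 scale from 6 to 8 hpf (SE 0.23, adjusted p = 0.0136), with the call lost without mutant 6 hpf replicate 1 (0.0754) or 8 hpf replicate 2 (0.168). In wild-type it was -0.30 (SE 0.23, adjusted p = 0.531). CHX-treated mutants were lower than untreated ones by a log2 fold change of -0.74 (SE 0.28, adjusted p = 0.0391). That call was lost without either untreated library, without CHX replicate 1 or 3, or with only both groups compared in the fit. Over 20 alternatives the value ran from -1.04 to -0.50.

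Its duplicate fam212aa had the reverse order under CHX. It stood at 759.5, 450.9 and 1060.2 CPM with CHX alone and at 110.99, 95.9 and 264 CPM with BMP2/7 protein, against 41.3 to 95.1 CPM in the 8 untreated libraries. CHX alone was above every other library and the injected embryos were in between. The log2 fold change of the protein, -2.24 (SE 0.46), missed the threshold (adjusted p = 0.0538), and with the replicate number as a block it was -2.32 (SE 0.14, adjusted p = 9.19e-06). In CHX-treated over untreated mutants its log2 fold change was 3.27 (SE 0.47, adjusted p = 6.69e-05). Of the other listed genes, pak1, for a kinase of the same family as the Inka target, fell from 6 to 8 hpf in wild-type (-1.31, SE 0.20, adjusted p = 0.0207) and in mutants (-1.44, SE 0.20, adjusted p = 0.00566). The wild-type call was lost without wild-type 6 hpf replicate 1 or any 8 hpf library, or with only both wild-type groups in the fit. The mutant call was lost without mutant 8 hpf replicate 2. Over 14 alternatives the values ran from -1.49 to -1.15 in wild-type and from -1.48 to -1.42 in mutants.

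dram1 (NM_001006049) encodes a lysosomal membrane protein that promotes autophagy. It stood at 40.6 and 25.5 CPM in wild-type and 19.5 and 16.2 CPM in mutant embryos at 6 hpf, and at 12.5 and 9.05 CPM against 3.70 and 4.23 CPM at 8 hpf. CHX alone gave 0.783, 1.70 and 1.11 CPM (11, 32 and 14 counts) and CHX with BMP2/7 protein 5.04, 3.43 and 4.16 CPM. The groups separated by genotype and by stage, with 6 hpf mutants above 8 hpf wild-type embryos, and the injected libraries overlapped only the 8 hpf mutants. Mutant levels were 53.9% of wild-type at 6 hpf and 36.8% at 8 hpf, and the protein gave a log2 fold change of 1.81 (SE 0.33). From 6 to 8 hpf dram1 fell in wild-type (-1.61, SE 0.32, adjusted p = 0.0466) and in mutants (-2.11, SE 0.35, adjusted p = 0.00974). The wild-type call was lost without 7 of the 8 libraries, all but wild-type 6 hpf replicate 2. It was also lost with only both wild-type groups in the fit. The mutant call was lost without mutant 6 hpf replicate 1 or either mutant 8 hpf library. Over 14 alternatives the values ran from -1.92 to -1.21 in wild-type and from -2.22 to -1.99 in mutants. CHX-treated mutants had 6.71% of the untreated level (-3.87, SE 0.33, adjusted p = 1.29e-06). Its relative dram2b had a log2 fold change of 0.12 (SE 0.35, adjusted p = 0.971) with BMP2/7 protein and was lower in CHX-treated than in untreated mutants (-1.38, SE 0.33, adjusted p = 0.00273). Like dram1 it was higher in wild-type than in mutants at 6 hpf, at 11.8 and 12.6 against 4.06 and 5.45 CPM. That call was lost in 5 of 14 alternatives, where the log2 fold change ran from 1.16 to 1.63. Unlike dram1 it rose from 6 to 8 hpf in mutants, to 10.0 and 12.9 CPM, a call lost in 4 of 14 alternatives.

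zfp36l1b (NM_199649) encodes a CCCH zinc finger protein of the family that binds AU-rich elements and brings about mRNA decay. Its levels were 72.0 and 33.4 CPM in wild-type and 20.4 and 22.1 CPM in mutant embryos at 6 hpf, and 81.4 and 34.0 CPM against 35.7 and 38.1 CPM at 8 hpf. CHX alone gave 19.9, 19.4 and 15.6 CPM and CHX with BMP2/7 protein 81.0, 59.8 and 52.0 CPM. The genotypes were apart at 6 hpf and overlapped at 8 hpf, where wild-type replicate 2 was below both mutants, and CHX alone was just below the 6 hpf mutants. The log2 fold changes were 1.34 (SE 0.45) and 0.64 (SE 0.44) for wild-type over mutant at 6 and 8 hpf and 1.83 (SE 0.18) for the protein. With 1 library left out the genotype values ran from 0.66 to 1.81 at 6 hpf and from -0.12 to 1.14 at 8 hpf. No change with stage passed the test (0.14, SE 0.43, adjusted p = 0.898 in wild-type and 0.84, SE 0.45, adjusted p = 0.253 in mutants, or 0.0387 with only both mutant groups in the fit), nor did the difference between CHX-treated and untreated mutants (-0.22, SE 0.36, adjusted p = 0.615). Its duplicate zfp36l1a went the other way between the genotypes at 6 hpf, at 115.2 ± 7.48 CPM in wild-type and 191 ± 21.1 CPM in mutants (SD, n = 2 each; log2 fold change -0.70, SE 0.17, adjusted p = 0.0268, and 0.0511 to 0.111 with any one of 6 libraries left out, the exceptions being both wild-type 8 hpf libraries). With the protein its log2 fold change was 0.08 (SE 0.12, adjusted p = 0.924). Of 25 tested genes of the ZFP36 family and the deadenylation and decay machinery, wild-type embryos had 1 up and 3 down at 6 hpf. edc4, for a scaffold of decapping, was at 42.5 ± 3.93 against 102 ± 3.37 CPM (SD, n = 2 each; -1.23, SE 0.20, adjusted p = 0.00821) and was lower at 8 hpf as well (-1.18, SE 0.20, adjusted p = 0.0188, and 0.0893 to 0.151 without wild-type replicate 2 or either mutant library of that stage).

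For atp1b3a, hsd3b2 and zfp36l1b the wild-type replicate 1 was higher than replicate 2 at both stages, by 1.67 to 2.40 times. It was also higher at 6 and 8 hpf for dram1 (1.59 and 1.38 times), ppp1r14c (1.25 and 1.04) and cbx7a (1.09 and 19.1). fam212ab was lower in replicate 1 at both stages, and ube2e2 and csad differed in direction between the stages. The yolk markers were higher in replicate 1, with a sum of 688 and 285 CPM in wild-type replicates 1 and 2 at 6 hpf. At 8 hpf their sum was 1297 and 645 CPM. The enveloping layer markers went the other way, with 5028 and 6318 CPM and then 5585 and 6744 CPM. Of the yolk markers hnf4a was near 0 throughout. The part of these markers in the levels of the genes was not tested.

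cbx7a (NM_001017853) encodes a Polycomb chromobox protein, which reads methylated histone H3 at silenced genes. It was measured with few counts, at 3.78 and 3.47 CPM in wild-type and 0.902 and 0 CPM in mutant embryos at 6 hpf (63, 70, 10 and 0 counts) and at 16.6 and 0.871 CPM against 7.62 and 12.5 CPM at 8 hpf (248, 13, 35 and 212 counts). CHX alone gave 0.356, 0.583 and 0.555 CPM and CHX with BMP2/7 protein 1.89, 1.72 and 2.08 CPM. At 8 hpf the wild-type libraries lay on both sides of the mutants, with replicate 1 at 19.1 times replicate 2, while at 6 hpf and under CHX the groups were apart. The log2 fold changes of wild-type over mutant were 2.99 (SE 1.34) at 6 hpf and -0.22 (SE 1.04) at 8 hpf. With 1 library left out they ran from 2.04 to 8.67, the latter against the mutant library with 0 counts alone and so set by the fit's prior count, and from -3.53 to 0.71, so the 8 hpf value has no fixed sign. For the protein it was 1.92 (SE 0.33), and as a ratio of levels over all counts, 93 against 23, 3.74 (95% exact counting interval 2.35 to 6.18). The mutant value from 6 to 8 hpf was 4.50 (SE 1.35, adjusted p = 0.0653). It ran from 3.54 to 10.19 over 14 alternatives and was called in 5 of them, with the block (adjusted p = 0.0270), without the filter, with only both mutant groups in the fit and without either wild-type 8 hpf library (0.0142 to 0.0169). Those in wild-type (1.28, SE 1.06, adjusted p = 0.573) and under CHX (0.13, SE 1.22, adjusted p = 0.940) did not pass. The wild-type value became -2.03 without 8 hpf replicate 1. The 10.19 of the mutants was against the 6 hpf library with 0 counts alone and so also set by the fit's prior count. Among 26 Polycomb genes tested with BMP2/7 protein 0 were called. Closest to the threshold were rybpb, for a subunit shared by variant Polycomb complexes, at 95.1, 100.2 and 82.5 CPM with against 37.2, 52.1 and 60.5 CPM without the protein (0.91, SE 0.19, adjusted p = 0.0538), and kdm2ba, for the subunit that binds unmethylated CpG islands, at 199, 145 and 124.4 against 282, 292 and 249 CPM (-0.80, SE 0.16, adjusted p = 0.0504). With the replicate block rybpb was called higher (adjusted p = 0.00305) and kdm2ba lower (adjusted p = 0.000909). The chromobox gene cbx2 (0.13, SE 0.08, adjusted p = 0.729) was not called.

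**Figure D3:**
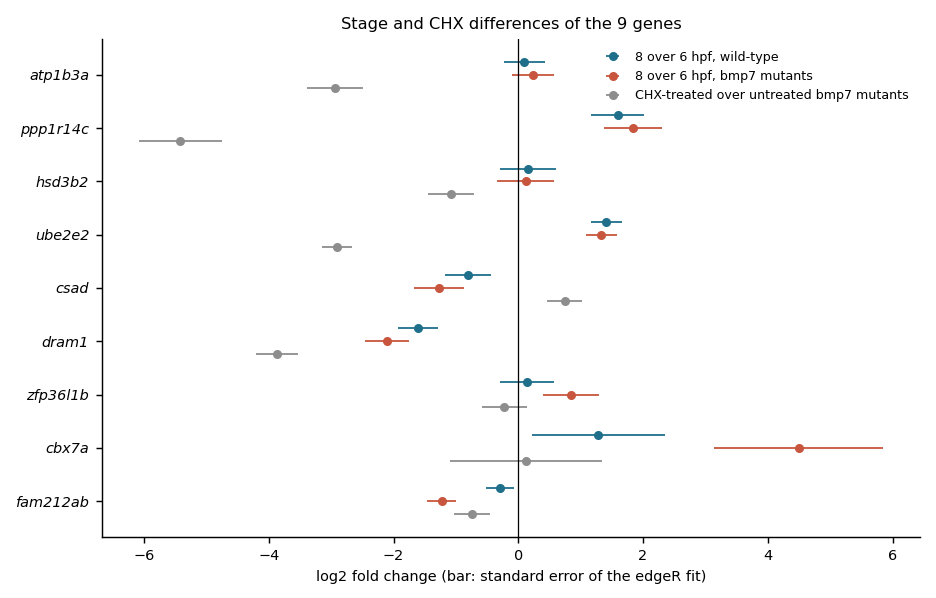
Log2 fold changes of the 9 genes from 6 to 8 hpf in both genotypes and in CHX-treated over untreated 6 hpf bmp7 mutants, with the standard error of the edgeR fit. ube2e2 and ppp1r14c lie to the right for stage and dram1 to the left, and CHX values run from -5.42 (ppp1r14c) to 0.74 (csad).

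The CHX comparison may differ in more than the drug, since the CHX embryos had lower enveloping layer and yolk marker sums. The drug and the difference in these markers cannot be told apart. The 4 hpf on the CHX labels is the time of treatment. With 30 minutes of CHX and collection 90 minutes after the injection, these embryos were near 6 hpf in age when collected. Within the CHX comparison, atp1b3a, ube2e2, ppp1r14c and dram1 were below the untreated mutants by 7.52-fold or more. In it zfp36l1b and cbx7a did not differ detectably. With BMP2/7 protein the CHX embryos reached different shares of the untreated wild-type 6 hpf mean, 12.7% for dram1, 18.6% for ppp1r14c, 25.0% for ube2e2, 52.3% for cbx7a and 55.3% for atp1b3a, against 102% for hsd3b2, 121.9% for zfp36l1b, 139% for csad and 167% for fam212ab. The other 48 genes on the study's list of direct targets had a median log2 fold change of 0.65 between CHX-treated and untreated mutants, with 19 higher and 13 lower, against 29.7% and 28.3% of all genes. Whether the 9 differ from them was not tested.

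Over the 9 lists of related genes, none of which holds any of the 9, 162 genes were tested with BMP2/7 protein and edgeR called 0 higher and 0 lower, with 16 at an unadjusted p under 0.05. DESeq2 called 1 higher (rybpb) and 2 lower (fam212aa, kdm2ba). With the replicate number as a block, which pairs the CHX libraries, 3 were higher and 8 lower, where 4.47% of all genes were called higher and 3.47% lower in that fit. The higher ones were rybpb, cthl, for an enzyme that makes cysteine, and xrn1, an exonuclease of mRNA decay, with log2 fold changes of 0.93, 0.74 and 0.37. The lower ones were fam212aa, kdm2ba, pmaip1 (-0.75), sesn1 (-0.62) and gadd45aa (-0.51), the E2 gene ube2c of the cell cycle (-0.53), atp1b1a (-0.42) and the deadenylation adaptor tob1a (-0.34). In wild-type over mutants at 6 hpf 7 of 166 related genes were higher and 19 lower, 4.22% and 11.4% against the 9.09% and 6.34% of all genes. At 8 hpf 1 was higher and 2 were lower, and from 6 to 8 hpf 1 rose and 2 fell in wild-type and 5 rose and 11 fell in mutants. Under CHX against untreated mutants 63 of 171 were higher and 49 lower.

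**Figure D4:**
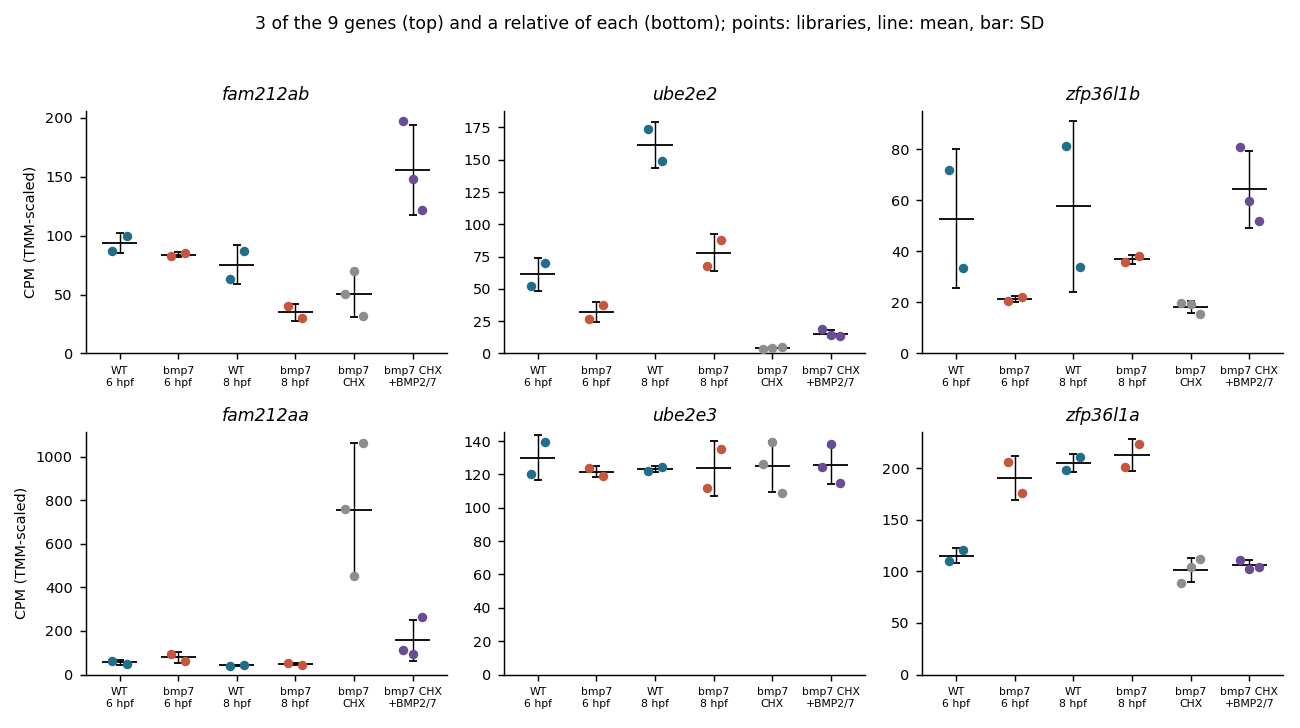
CPM of fam212ab, ube2e2 and zfp36l1b (top) and of a relative of each, fam212aa, ube2e3 and zfp36l1a (bottom), in all 14 libraries, with points for libraries, lines for means and bars for SD, on linear axes that start at 0. fam212aa falls from 757 to 157 CPM (means) with BMP2/7 protein where fam212ab goes from 50.5 to 156 CPM. The group means of ube2e3 stay between 121.5 and 130 CPM.

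The order of the group means differed among the 9. Wild-type embryos at 8 hpf were highest for atp1b3a, ppp1r14c, hsd3b2 and ube2e2, CHX embryos with BMP2/7 protein for csad, zfp36l1b and fam212ab, wild-type at 6 hpf for dram1 and mutants at 8 hpf for cbx7a. The highest group overlapped the next in range for atp1b3a, hsd3b2, zfp36l1b and cbx7a. Between the highest and the lowest group the mean differed by 3.51 times for zfp36l1b, 4.45 times for fam212ab, 4.58 times for hsd3b2 and 7.81 times for csad, and by 16.5 times or more for the other 5. Across the 14 libraries, which share the 6 groups, the 36 pairs of the 9 genes had correlations of log2 CPM with a median of 0.53 and a range of -0.41 to 0.96. The gene most like each, among 8685 compared, was mthfd1l for atp1b3a (r = 0.960), ube2e2 for ppp1r14c (r = 0.964), zfp36l1b for hsd3b2 (r = 0.898), pls3 for ube2e2 (r = 0.973), neu4 for csad (r = 0.929), syncrip for dram1 (r = 0.942), nudt4b for zfp36l1b (r = 0.940), zgc:56576 for cbx7a (r = 0.884) and eve1 for fam212ab (r = 0.959). Next came gpr161, mthfd1l, smad6b, bend3, haus5, sik1, tbx3a, zgc:66448 and smtnl1 in the same order of genes, with r of 0.843 to 0.965. Most of these values rest on differences between the 6 groups, and they are a description.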

How the data were processed

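The authors made stranded libraries of polyadenylated RNA, mapped the reads with RUM to the GRCz11 genome and deposited raw read counts for 14532 RefSeq transcripts. For RUM no version was found in the text used here, nor whether strand entered the counting. The deposited table also has 14 columns of log2 values and columns of the authors' own fold changes, p-values and FDR from edgeR, none of which was used. Tests used the quasi-likelihood fit in edgeR 4.0.16 under R 4.3.3 (TMM factors, filterByExpr with a minimum count of 10), on the 8 untreated libraries as 4 groups, on the 6 CHX libraries as 2 groups, and on all 14 as 6 groups for CHX against untreated mutants. Calls needed an adjusted p (Benjamini-Hochberg, over all transcripts) under 0.05, and each gene stands by its transcript with the highest count. The fits were tested on simulated data.

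The 9 genes, the lists of related genes and the tests were chosen with earlier results of these data known. Named are bmp7a, the 9 genes, called genes of each list (examples of the 4 with the smallest p) and the 2 genes most like each of the 9 (log2 CPM with a prior count of 2, average of at least 1). Duplicates of the 9, cdo1, cbx2 and the related genes named under BMP2/7 protein were added after their values were seen. Same-numbered CHX libraries deviated together (r = 0.406, 0.715 and 0.634), so the number was taken to pair them. This comes from the data alone. Alternatives were RLE factors, no filter, DESeq2 1.42.0, the block, a single transcript per gene, other libraries in the fit and leaving out each library. 14 symbols turned into dates were kept as they stood. Some genes of the lists are not reported here. No sequences are shown, and none were used here.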

Additional observations from a re-analysis of the deposited data

How the results depend on the processing

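With the replicate number as a block, which pairs the CHX libraries, 750 genes were called with BMP2/7 protein in place of 213. The labels do not say in any group whether the number marks a shared batch. In the untreated libraries, with 2 replicates, correlations between same-numbered libraries were -0.02 to 0.47, the highest above the 0.406 of CHX replicate 1. There the block called 2407 genes at 6 hpf, 941 at 8 hpf, 525 for stage in wild-type and 1652 for stage in mutants, against 1548, 316, 176 and 1092. It called 6 of the 9 genes at 6 and 6 at 8 hpf, where 13.7% and 5.46% of all genes were called higher. Like all counts of the 9 between genotypes or with the protein, these come from comparisons that chose them and show nothing of stability. DESeq2 called 375 genes with BMP2/7 protein, 915 at 8 hpf and 576 for wild-type stage. Of the 9 it called 5 at each stage between genotypes, where 10.9% (6 hpf) and 5.34% (8 hpf) of all genes were called higher. Without the filter 628 genes were called at 8 hpf and 389 for wild-type stage. Of the 9 this fit called 5 at each stage, where 1098 (6 hpf) and 396 (8 hpf) of all genes were called higher. With only the 2 groups compared, 854 genes and 1 of the 9 were called at 6 hpf, 577 and 4 at 8 hpf, and 8 and 0 for wild-type stage.

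Leaving out each library in turn gave 262 to 1562 genes at 6 hpf, 44 to 465 at 8 hpf, 89 to 192 with BMP2/7 protein, 12 to 227 for wild-type stage, 54 to 1245 for mutant stage and 4840 to 6388 for CHX. Of the 9 it called 0 to 6, 0 to 4, 4 to 8, 0 to 2, 0 to 5 and 4 to 7. None of these ranges has a tested cause. Some uncalled values changed sign with a library left out. Between genotypes at 8 hpf zfp36l1b ran from -0.12 to 1.14 and cbx7a from -3.53 to 0.71, while hsd3b2 at 6 hpf stayed above 0 at 0.22 to 1.52. Wild-type stage ran from -0.32 to 0.68 for atp1b3a (-0.32 without 6 hpf replicate 2 and without 8 hpf replicate 1), -0.48 to 0.94 for hsd3b2 (-0.36 and -0.48), -0.63 to 0.82 for zfp36l1b (-0.32 and -0.63) and -2.03 to 2.21 for cbx7a. Mutant stage ran from -0.20 to 0.53 for hsd3b2, and CHX from -0.84 to 5.92 for cbx7a (-0.014 without CHX replicate 2). The 5.92 was against the 6 hpf mutant library with 0 counts alone and so set by the fit's prior count. With BMP2/7 protein the ranges were -0.24 to 0.087 for atp1b3b (also 0.080), -0.050 to 0.11 for ube2e3 (also -0.043), -0.011 to 0.17 for zfp36l1a and -0.069 to 0.40 for dram2b (also -0.0065). Wild-type stage of ppp1r14c was called by DESeq2 (adjusted p = 0.00786) and mutant stage of csad (0.0476) and cbx7a (0.0270) by the block, which lost the CHX call of csad (0.0551). Group levels were also taken with RLE factors, with library size alone and as a sum over transcripts. Of these 162 values 142 moved by less than 1 SD and 20 by more. The sum over transcripts could not move, since each of the 9 genes has 1 transcript in the count table. The 142 include those fixed values and so overstate stability. Group totals under 100 counts limit ppp1r14c and cbx7a in both CHX groups and dram1 (57 counts) with CHX alone. In untreated mutants they limit ppp1r14c (49 counts) and cbx7a (10 counts) at 6 hpf and dram1 (89 counts) at 8 hpf.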
